A study of Homo sapiens with 21 samples.

Results

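The MYCN locus on chromosome band 2p24 was taken as all ATAC-seq sites that start between positions 15000000 and 17000000 of chromosome 2 (GRCh38). This gave 512 of the 367900 consensus sites, chosen by position alone and not by any measured value. ATAC-seq counts the insertions of the Tn5 transposase, so the read count over a site rises with how open its chromatin is and with how many DNA copies of it the cell holds. All libraries came from SK-N-BE(2), a neuroblastoma line long kept in culture, which was grown from a human bone marrow metastasis and carries extra copies of MYCN. The cells of all 7 groups were transduced with lentivirus that expresses a short hairpin RNA (shRNA) and collected 72 h later, with 3 libraries per group and 21 in all. The Control group received a non-silencing shRNA. Groups shARID1A.2 and shARID1A.4 each carried an shRNA against ARID1A, and shARID1B.2 and shARID1B.3 each carried an shRNA against ARID1B. Groups shARID1A/B.2.3 and shARID1A/B.4.2 carried an shRNA against each gene, and are called the combinations. All groups are 1 cell line, no untransduced cells were analysed here, and nothing states that the 3 libraries of a group came from separate cultures, so p-values measure only the spread between these libraries.

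MYCN encodes a transcription factor of the MYC family that binds DNA with its partner MAX, and its amplification marks aggressive neuroblastoma. Amplified copies sit on circular extrachromosomal DNA or in repeated blocks within a chromosome, and they often carry stretches of neighbouring DNA with genes such as DDX1 and NBAS and with enhancers of the developing sympathetic nervous system. ARID1A and ARID1B are alternative large subunits of the BAF complex, a form of the mSWI/SNF remodeller that moves or evicts nucleosomes, mainly at enhancers.

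The sequences on which the comparisons turn are printed here as the plus strand of GRCh38, 5′ to 3′. The stretch before the MYCN start, chr2:15940300-15940549, was taken from RefSeq (GRCh38.p14), and the others are the 300 bases around the centre of a site. Capitals mark a match to a searched motif on either strand.

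MYCN upstream: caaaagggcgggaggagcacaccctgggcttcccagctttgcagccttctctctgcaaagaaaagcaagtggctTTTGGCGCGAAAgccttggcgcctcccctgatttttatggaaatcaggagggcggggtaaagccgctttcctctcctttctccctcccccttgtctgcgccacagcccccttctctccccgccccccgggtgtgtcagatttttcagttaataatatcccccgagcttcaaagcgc
Interval_133706: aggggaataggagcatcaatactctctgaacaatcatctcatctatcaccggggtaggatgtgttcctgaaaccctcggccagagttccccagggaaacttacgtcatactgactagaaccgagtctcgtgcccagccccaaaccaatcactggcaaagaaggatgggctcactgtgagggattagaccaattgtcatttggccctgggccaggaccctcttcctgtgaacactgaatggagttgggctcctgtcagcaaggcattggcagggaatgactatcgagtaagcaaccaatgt
Interval_133746: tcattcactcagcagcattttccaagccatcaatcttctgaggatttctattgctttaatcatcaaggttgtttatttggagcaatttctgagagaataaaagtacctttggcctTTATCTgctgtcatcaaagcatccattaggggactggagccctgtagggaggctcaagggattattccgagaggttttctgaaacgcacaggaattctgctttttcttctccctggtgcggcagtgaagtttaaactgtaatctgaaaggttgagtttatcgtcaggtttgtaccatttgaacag
Interval_133689: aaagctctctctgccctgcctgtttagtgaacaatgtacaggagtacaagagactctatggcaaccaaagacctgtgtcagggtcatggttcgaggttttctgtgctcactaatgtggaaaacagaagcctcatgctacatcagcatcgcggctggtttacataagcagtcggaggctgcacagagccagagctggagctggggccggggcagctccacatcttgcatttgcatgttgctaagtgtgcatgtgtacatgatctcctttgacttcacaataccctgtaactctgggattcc
Interval_133912: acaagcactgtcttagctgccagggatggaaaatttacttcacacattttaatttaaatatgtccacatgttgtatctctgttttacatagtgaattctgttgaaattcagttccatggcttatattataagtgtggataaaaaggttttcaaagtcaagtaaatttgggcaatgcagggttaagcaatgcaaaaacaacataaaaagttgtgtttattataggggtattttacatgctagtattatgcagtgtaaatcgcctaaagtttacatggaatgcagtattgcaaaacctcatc
Interval_133583: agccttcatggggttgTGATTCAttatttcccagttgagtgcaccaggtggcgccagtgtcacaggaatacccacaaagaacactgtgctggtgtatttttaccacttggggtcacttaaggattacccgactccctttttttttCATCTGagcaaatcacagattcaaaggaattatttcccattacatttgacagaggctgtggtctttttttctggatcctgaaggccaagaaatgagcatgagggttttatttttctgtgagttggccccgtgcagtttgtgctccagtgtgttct

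Interval_133706 is shown because it had the highest signal per kb of all 367900 sites. Interval_133746 and Interval_133689 are 2 further sites of very high signal that fell under combined silencing. Interval_133912 lies outside the stretch of very high signal and fell, and Interval_133583 rose. Their windows are chr2:16201912-16202211, chr2:16393421-16393720, chr2:16094268-16094567, chr2:16999515-16999814 and chr2:15637413-15637712, in the order printed. The searched motifs given here, on both strands, were the MYC-type E-box CACGTG, the HAND-type E-box CATCTG, the GATA motif AGATAA, the AP-1 motif TGANTCA and the core of the CTCF motif. Interval_133746 held AGATAA, and Interval_133583 held CATCTG and TGANTCA. The MYCN stretch held none of these, but held 2 overlapping matches to TTTNGCGC, the letters of an E2F site, which 1.51% of 35116 RefSeq promoters hold in their 250 bases upstream. This motif was added after the sequence had been seen. Among all 512 locus sites 3.52% held CACGTG, 23.4% held CATCTG and 19.3% held AGATAA, against 4.15%, 23.0% and 16.9% of all sites, and the median GC content was 45.3% against 46.7%.

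Each library had 16140029 to 44472230 reads in sites. Locus sites held 3.96% to 4.76% of them although they are 0.139% of the sites. In Control the share was 4.68%, 4.00% and 4.71%, so Control replicate 2 stood below the other 2 Control libraries, and the main values that move without it are also given without it. The cell type was checked on sites within 1 kb of the starts of marker genes. The adrenergic neuroblastoma genes HAND2 and GATA3 had 40.5 to 59.8 and 11.99 to 17.6 CPM over the 21 libraries, where CPM is the count scaled to a common library size. DBH had 5.13 to 14.6 CPM and TH 2.06 to 4.23 CPM. No such site existed for the blood gene PTPRC, the liver gene ALB or the mesenchymal gene PRRX1. The epithelial genes CDH1 and KRT18 had at most 5.03 and 4.80 CPM, and the mesenchymal gene TWIST1 had 30.2 to 42.6 CPM.

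The signal of the locus was concentrated in 1 uninterrupted run of 94 neighbouring sites, chr2:15939562-16420755, which spans 481.2 kb. The run begins at the site over the MYCN start and extends downstream, away from DDX1 and NBAS. It was defined after the values had been seen, as the consecutive sites with over 20 CPM per kb of site, and its sites reached 50.5 to 1608 CPM per kb, with a median of 98.5. The other 418 locus sites had a median of 1.55 CPM per kb, 63.4 times lower, close to the 1.37 CPM per kb of all sites. Run sites carried 97.3% of all locus reads. Both edges were sharp. At the upstream edge Interval_133659 (chr2:15927450-15929188) had 1.45 CPM per kb. The next site, 10373 bases further on and over the MYCN start, had 1111, and the site after that had 81.2. At the downstream edge the last site of the run (chr2:16416836-16420755) had 59.0 CPM per kb, and Interval_133754, 5101 bases beyond it, had 3.39. In bins of 100 kb, signal stayed above 4 times the genome-wide median bin over 600 kb, and over 550 kb with bins of 50 kb. These data hold no input DNA, so the number of copies and the accessibility per copy cannot be told apart.

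**Figure D1:**
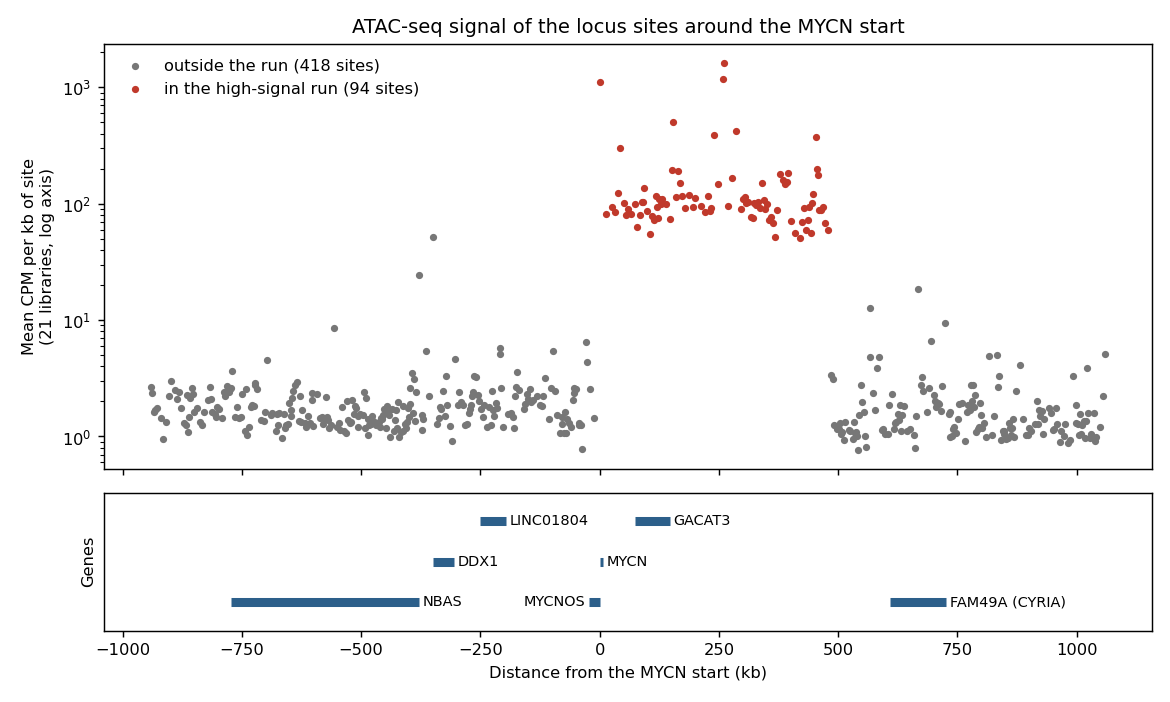
Mean CPM per kb of site over the 21 libraries (log axis) for each of the 512 locus sites against its distance from the MYCN start in kb, with GENCODE genes below. The 94 run sites (red) lie between 50.5 and 1608 CPM per kb and the 418 others (grey) between 0.772 and 51.8.

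Site density did not rise with the signal. The run held 19.5 sites per 100 kb, against 27.5 in the rest of the locus and 28.9 in the flanks, the 2 Mb on either side of the locus. Its sites were longer, with a median length of 2778 bases against 1019 bases outside it, so that 61.6% of the run but 37.9% of the rest of the locus lay in sites. By the deposited annotation 85 of the 94 run sites were intergenic, 8 were in introns and 1 was a promoter. The 10 sites with the highest CPM of the whole genome were all run sites, as were 48 of the highest 50.

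MYCN is the protein-coding gene inside the run, together with the non-coding RNA gene GACAT3. The non-coding gene MYCNOS, read from the opposite strand, overlaps its edge, and MYCNUT ends 3.55 kb before it. Interval_133660 (chr2:15939562-15944082) covers the starts of both MYCN and MYCNOS and had the highest CPM of all sites. DDX1, which encodes an RNA helicase, lies 305.2 kb and NBAS, which encodes a protein of Golgi-to-ER transport, lies 378.2 kb upstream of the run. The site at the DDX1 start (Interval_133572, chr2:15590900-15592595) had 51.8 CPM per kb and that at the NBAS start (Interval_133566, chr2:15560327-15562012) had 24.6. These were above 99.5% and 88.8% of the annotated promoter sites elsewhere in the genome, which had a median of 7.27 CPM per kb. Over their whole lengths the 11 sites in DDX1 and the 124 sites in NBAS had medians of 1.73 and 1.48 CPM per kb, near that of all sites. FAM49A, also named CYRIA, encodes a regulator of the actin cytoskeleton and lies 128.7 kb beyond the run, with a median of 1.81 CPM per kb over 31 sites.

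The total signal of the locus differed between groups by less than the spread of the Control libraries. Summed over the locus it was 47947, 38836 and 47591 CPM in Control, 44652, 38755 and 44984 CPM in shARID1A/B.2.3, and 41370, 40383 and 42059 CPM in shARID1A/B.4.2. The 2 higher Control libraries lay above every library of both combinations, and Control replicate 2 lay below all but 1 of them. On the log2 scale the mean of the combinations was 0.09 below Control, and the single shRNA groups were between 0.02 below and 0.03 above it. Without Control replicate 2 these differences were -0.19 in the combinations and between -0.11 and -0.07 in the single shRNA groups. In each of the 3 pairs of libraries with the same number, shARID1A/B.2.3 was below Control. The sites outside the run, summed, had 1266, 1293 and 1255 CPM in Control and 1111 to 1248 CPM in the 18 silenced libraries, with no overlap. This separation depended on the TMM factor, since as a share of all reads in sites they held 0.124% to 0.133% in Control and 0.112% to 0.126% in the silenced libraries, and 1 of these 18, shARID1A.2 replicate 2, overlapped Control.

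At single sites, both directions were seen under combined silencing. The averaged combinations were compared with Control by edgeR over all tested sites, and a false discovery rate (FDR) under 0.01 made a site closed where its signal was lower and opened where it was higher. Of 511 tested locus sites 39 closed, which is 7.63%, and 42 opened, which is 8.22%. Over all tested sites 10.3% closed and 3.43% opened. The 2 directions lay in different places. In the run 11 of 94 sites closed and 39 opened, with a median log2 change of 0.20. In the rest of the locus 28 of 417 closed and 3 opened, with a median of 0.05, and in the flanks 64 of 1152 closed and 8 opened. The median over all sites was 0.03. Without Control replicate 2 the run sites that opened fell to 14, while 11 closed. Scaling factors (TMM, a trimmed mean of ratios between libraries) were also taken from promoter sites alone, which moved the median of all sites to -0.20. Then 24 run sites closed and 0 opened, against 15.9% and 0.73% of all sites, with a run median of -0.03 (edgeR). The run median was 0.17 above that of all sites under both scalings. Reads in promoter-annotated sites moved with the groups, from 20.0% to 20.6% in Control to 23.4% to 25.1% in the combinations, and their part in these counts was not tested.

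**Figure D2:**
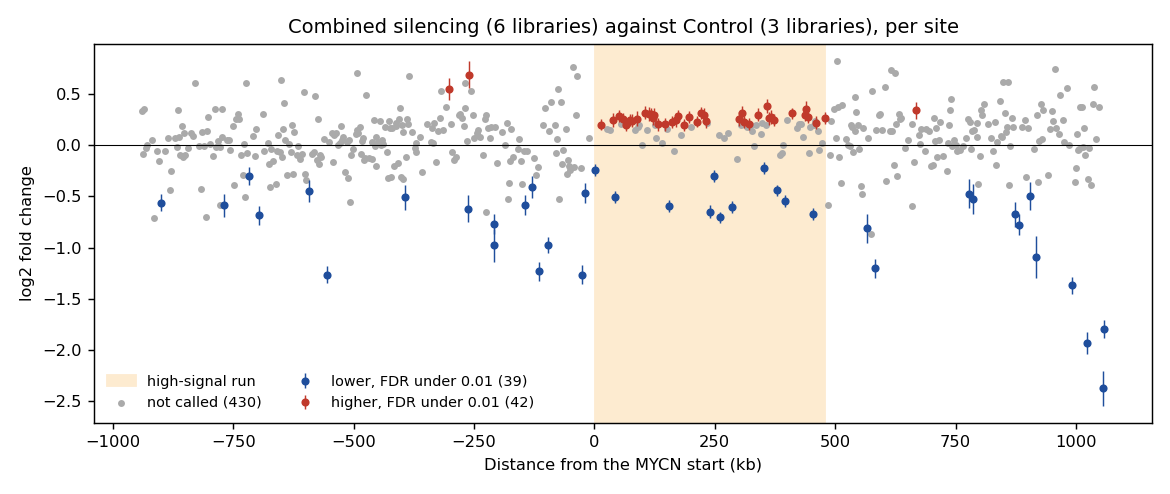
log2 fold change of the combinations (6 libraries) against Control (3 libraries) for the 511 tested sites against distance from the MYCN start in kb, with bars of 1 SE on called sites. Opened sites (red) lie mostly in the shaded run at 0.19 to 0.38, and closed sites (blue) reach -2.37 at the far end of the locus.

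Within the run, the calls divided by the height of the sites. Of the 94 sites 9 had at least 2 times the run's median CPM per kb, a limit set after seeing the data, and these 9, called tall, carried 37.6% of the run's signal. In the averaged combinations 7 of the 9 closed and 0 opened, with a median log2 change of -0.60. Of the other 85 sites 4 closed and 39 opened, with a median of 0.20, which was -0.03 with promoter-based scaling, where 16 closed and 0 opened. The tall sites stayed lower under that scaling, with 8 of 9 closed and a median of -0.83. Interval_133705 and Interval_133747 were the 2 tall sites that did not pass. The share of the run's signal in the 9 tall sites is a ratio within a library, which library depth and a copy number common to the run leave unchanged. It was 42.4%, 41.8% and 41.6% in Control, 31.5%, 28.7% and 31.2% in shARID1A/B.2.3, and 37.1%, 37.5% and 37.6% in shARID1A/B.4.2. All 6 libraries of the combinations were below all 3 Control libraries, and Control replicate 2 did not stand apart on this measure. It was 34.7% ± 1.04 (SD, n = 3) in shARID1A.2 and 35.6% ± 0.432 in shARID1B.3, where no library overlapped Control. It was 40.6% ± 0.332 in shARID1A.4, just below Control, and 42.2% ± 0.108 in shARID1B.2, which overlapped Control. Across the 94 run sites the log2 change in the averaged combinations fell with CPM per kb (Spearman's rho -0.45, Pearson's r of the log2 values -0.68), a description over sites that share their libraries. Outside the locus, intergenic and intron sites at 2 or more times the median CPM per kb of that set had a median log2 change of -0.10. They closed in 36.2% and opened in 10.7% of 33282 cases. The lower sites of that set had a median of 0.03, with 7.73% closed and 0.990% opened. Promoter sites outside the locus at 2 or more times their own median had a median of 0.29, and 0.495% of them closed.

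**Figure D3:**
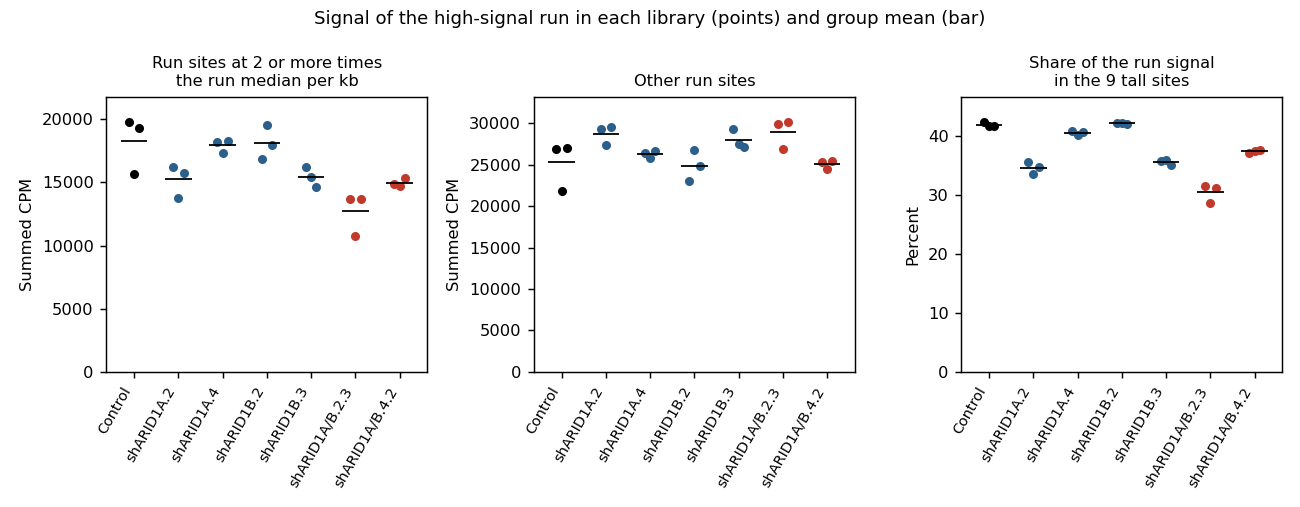
Summed CPM of the 9 tall run sites (left), of the 85 other run sites (middle), and the percent of the run's signal in the tall sites (right), for each of the 21 libraries (points) with group means (bars). The share is 41.6% to 42.4% in Control and 28.7% to 31.5% in shARID1A/B.2.3.

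Interval_133706 (chr2:16201354-16202769), 262 kb downstream of the MYCN start, had the highest signal per kb. GENCODE places it over an exon of the non-coding gene ENSG00000226041. It had 2966.2, 2372.5 and 2753.2 CPM in Control, 1355.9, 1069.5 and 1357.9 in shARID1A/B.2.3, and 2178.1, 2126.5 and 2196.6 in shARID1A/B.4.2. It fell by 0.71 on the log2 scale in the averaged combinations (SE 0.06, FDR = 1.6e-19, edgeR). All 6 libraries of the combinations were below Control. With single shRNAs it had 1848, 1540 and 1773 CPM in shARID1A.2, 2593, 2497 and 2603 in shARID1A.4, 3126, 3411 and 3227 in shARID1B.2, and 2368, 2287 and 2173 in shARID1B.3. The fall was larger in shARID1A/B.2.3 than in shARID1A/B.4.2, with a difference of -0.78 (FDR = 7.3e-17). The log2 change was -0.65 in shARID1A.2 (FDR = 4.6e-13), -0.07 in shARID1A.4 (FDR = 0.59), -0.245 in shARID1B.3 (FDR = 0.0046) and 0.27 in shARID1B.2 (FDR = 0.0033), where all 3 libraries were above Control. The 2 shRNAs of ARID1A differed by -0.58 (FDR = 6.7e-11) and those of ARID1B by -0.52 (FDR = 1.1e-09), and the ARID1A shRNAs together differed from the ARID1B shRNAs by -0.37 (FDR = 6.4e-10).

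Interval_133705 (chr2:16197370-16199167), the next site upstream of it, had 1188 CPM per kb and did not pass the test in any of the 7 comparisons with Control. It had 2140, 1714 and 2063 CPM in Control, 2264, 1772 and 2288 in shARID1A/B.2.3, and 2090, 2083 and 2147 in shARID1A/B.4.2. Its log2 change in the averaged combinations was 0.10 (SE 0.06, FDR = 0.28, edgeR).

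The site over the MYCN and MYCNOS starts had a small fall, whose call depended on the scaling and on single libraries. Interval_133660 had 5751.5, 4659.5 and 5655.4 CPM in Control, 4628, 3644 and 4642 in shARID1A/B.2.3, and 4693, 4681 and 4901 in shARID1A/B.4.2. With single shRNAs it had 5225, 4378 and 5065 CPM in shARID1A.2, 6218, 5858 and 6228 in shARID1A.4, 4700, 5525 and 5023 in shARID1B.2, and 4873, 4662 and 4443 in shARID1B.3. The libraries of shARID1A/B.2.3 were all below Control, those of shARID1A.4 were all above it, and the other groups overlapped it. Its log2 change was -0.24 in the averaged combinations (SE 0.06, FDR = 3.4e-04), -0.32 in shARID1A/B.2.3 (FDR = 6.3e-05) and -0.17 in shARID1A/B.4.2 (FDR = 0.056, edgeR). The averaged call did not hold when the run's own signal, of which this site is a part, set the scale (-0.15, FDR = 0.12, edgeR). It also did not hold with DESeq2 (-0.23, FDR = 0.036), or without Control replicate 1 (-0.19), Control replicate 3 (-0.20) or shARID1A/B.2.3 replicate 2 (-0.16). In shARID1A.4 its value was 0.19 above Control (FDR = 0.043), which did not pass, and the 2 ARID1A shRNAs differed by -0.32 (FDR = 2.7e-04). As a share of the run's signal it was 12.3% ± 0.103 in Control, 10.3% ± 0.529 (SD, n = 3) in shARID1A/B.2.3, 11.9% ± 0.167 in shARID1A/B.4.2 and 13.8% ± 0.197 in shARID1A.4.

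The other tall sites lay among non-coding genes or in no gene. Interval_133746 (chr2:16392144-16394996), 453 kb downstream and over an exon of ENSG00000224400, had 1513, 1168 and 1480 CPM in Control, 868, 679 and 866 in shARID1A/B.2.3, and 934, 915 and 964 in shARID1A/B.4.2. Its log2 change was -0.675 in the averaged combinations (SE 0.06, FDR = 1.8e-16, edgeR) and passed the test as lower in all 6 silenced groups. In shARID1B.2 it was -0.31 (FDR = 0.0019) and did not pass when scaled on the run (FDR = 0.017) or with DESeq2 (FDR = 0.064). With DESeq2 it also did not pass in shARID1A.2 (FDR = 0.046) or shARID1A.4 (FDR = 0.012), and leaving out Control replicate 1 ended the calls of these 3 groups (-0.24, -0.24 and -0.27 in shARID1A.2, shARID1B.2 and shARID1A.4). Those of shARID1A.2 and shARID1B.2 also ended without Control replicate 3 (-0.25 and -0.26), that of shARID1A.2 without its own replicate 2 (-0.21), and that of shARID1B.2 without its own replicate 1 or 3 (-0.25 and -0.30). Interval_133709 (chr2:16223138-16228137) had 2883, 2249 and 2825 CPM in Control, 1804, 1423 and 1806 in shARID1A/B.2.3, and 1815, 1775 and 1856 in shARID1A/B.4.2. Its fall was 0.60 in the averaged combinations, with each combination below every Control library. Interval_133703 (chr2:16179534-16182153) fell by 0.65 and Interval_133665 (chr2:15981635-15986759), 44 kb downstream of the MYCN start, fell by 0.51. The tall sites beyond the 4 of highest CPM were chosen for their height after their values had been seen.

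Interval_133689 (chr2:16093557-16095277), 154 kb downstream and in an intron of ENSG00000236989, differed between shRNAs in another order than Interval_133706. It had 1112, 867 and 1097 CPM in Control, 679, 517 and 667 in shARID1A/B.2.3, and 738, 722 and 767 in shARID1A/B.4.2, a fall of 0.60 in the averaged combinations (FDR = 1.6e-13, edgeR). With single shRNAs it had 683, 648 and 668 CPM in shARID1A.4 but 1175, 966 and 1088 in shARID1A.2, and 790, 736 and 684 in shARID1B.3 but 1103, 1266 and 1154 in shARID1B.2. The difference between the 2 ARID1A shRNAs was 0.69 (FDR = 5.2e-12), opposite in sign to that at Interval_133706, and that between shARID1B.3 and shARID1B.2 was -0.67 (FDR = 5.3e-12).

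**Figure D4:**
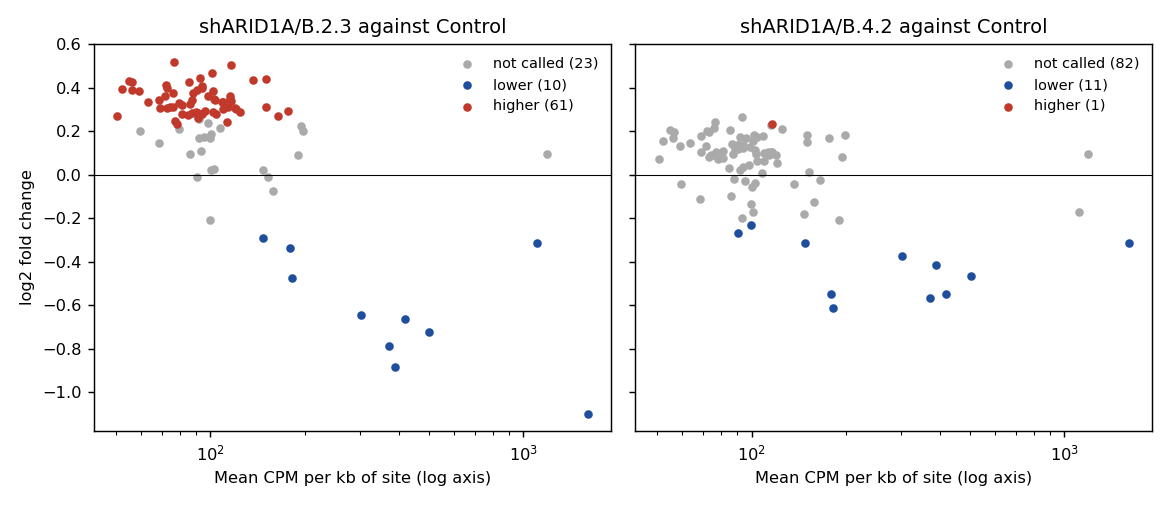
log2 fold change against Control of the 94 run sites against their mean CPM per kb (log axis), for each combination, coloured by call at FDR under 0.01. In shARID1A/B.2.3 10 sites were lower and 61 higher, and in shARID1A/B.4.2 11 were lower and 1 higher.

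Among the lower sites of the run, the rises were small and depended on the scaling. Interval_133677 (chr2:16044797-16046874), in an intron of GACAT3, is an example, with 100.4, 87.1 and 104 CPM in Control, 131, 128 and 133 in shARID1A/B.2.3, and 114, 111 and 111 in shARID1A/B.4.2. Its log2 change was 0.32 in the averaged combinations (SE 0.06, FDR = 4.9e-05, edgeR). Over GACAT3, a non-coding RNA gene, 10 of 18 sites opened and 0 closed. In the whole run 41.5% opened and 11.7% closed, and of all tested sites 3.43% and 10.3%. Interval_133726 (chr2:16298864-16299557) rose by 0.38 and Interval_133742 (chr2:16380064-16380319) by 0.36, and with promoter-based scaling none of these 3 sites passed. The share of stretches of 30 bases, 28 per window, with another copy on chromosome 2 was 16 of 28 at Interval_133742, where reads may be shared with other places, and 0 or 1 of 28 at Interval_133677 and Interval_133726.

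The silenced groups differed in how the run behaved. In shARID1A/B.2.3, 41 locus sites closed and 64 opened (over all sites 10.4% and 2.85%), and 61 of the opened sites were in the run, whose median was 0.29. In shARID1A/B.4.2, 33 closed and 5 opened (7.37% and 3.97% of all sites), 1 of them in the run, whose median was 0.09. Promoter-based scaling moved the median of all sites to between -0.33 in shARID1A/B.4.2 and -0.09 in shARID1A/B.2.3 over the 6 groups. With this scaling the run had 65 closed and 0 opened sites in shARID1A/B.4.2, against 15.09% and 0.8103% of all sites. In shARID1A/B.2.3 the run had 12 closed and 31 opened, against 12.82% and 1.097% of all sites. Compared directly, 22 locus sites were higher in shARID1A/B.2.3 than in shARID1A/B.4.2 and 14 were lower (1.43% and 3.79% of all sites), and 20 of the 22 lay in the run. Setting the scale by the run's own summed signal moved the median of all sites to 0.12 in the averaged combinations and to -0.02 in that direct comparison. With it 2 run sites passed as higher and 4 as lower in the direct comparison, against 0.912% and 4.28% of all sites. The run median there was 0.15, with 81 of 94 sites higher, against 0.20 and 86 with the TMM factors of all sites. Other settings called more run sites higher than run-based scaling did. Under promoter-based scaling, which moved the median of all sites to 0.21 there, 85 run sites were higher and 2 lower, against 3.31% and 1.81% of all sites. With total counts 74 were higher and 2 lower (2.33% and 2.80% of all sites), and with a replicate block 37 and 5 (1.56% and 4.23%). shARID1A.2 closed 20 and opened 48 locus sites (4.54% and 0.834% of all sites), with 46 of the opened in the run, and shARID1B.3 closed 28 and opened 22 (4.88% and 3.12%), with 17 in the run. shARID1A.4 closed 16 and opened 6 (4.17% and 2.28%), and shARID1B.2 closed 12 and opened 1 (1.84% and 1.34%), with 2 and 1 of the opened in the run. Without Control replicate 2 the run contained 17 opened sites in shARID1A.2, 33 in shARID1A/B.2.3 and 5 in shARID1B.3. These comparisons share the 3 Control libraries. Directly compared, shARID1A.2 was lower than shARID1A.4 at 12 locus sites and higher at 3 (1.84% and 0.737% of all sites). The balance turned with the scaling. With the TMM factors of all sites 2 run sites were higher and 3 lower. With promoter-based scaling 58 were higher and 3 lower (1.164% and 1.153% of all sites), and the median of all sites moved to 0.12. With total counts 51 were higher and 3 lower (1.099% and 1.45% of all sites). The median difference of the run was 0.15, with 82 of 94 sites higher in shARID1A.2. Group shARID1B.3 was lower than shARID1B.2 at 16 and higher at 17 (4.25% and 2.96%). The ARID1A shRNAs together were lower than the ARID1B shRNAs at 14 locus sites and higher at 5 (3.69% and 1.05%). Against the 4 single shRNA groups together, the combinations closed 26 locus sites and opened 2 (6.85% and 0.969% of all sites), and 7 of the 9 tall sites were among the closed.

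Outside the run, the falls of the called sites were larger in ratio. The 28 closed sites there had a median of 7.40 CPM, against 1.49 CPM for the 418 sites outside the run. They had a median log2 change of -0.73, against -0.54 for the 11 closed run sites, and 9 of the 28 fell at least 2-fold, as 0 of the 11 did. Of the 28, 22 were intergenic and 6 were in introns. The 4 largest falls among sites with a mean of at least 1 CPM lay at the far end of the locus, beyond FAM49A and in no GENCODE gene.

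Interval_133911 (chr2:16995943-16996625) had 4.23, 4.36 and 4.09 CPM in Control, 0.591, 1.301 and 0.879 in shARID1A/B.2.3, and 0.717, 0.644 and 0.696 in shARID1A/B.4.2. It fell by 2.37 in the averaged combinations (SE 0.17, FDR = 1.6e-21, edgeR) and by 1.39 to 2.37 with single shRNAs, and every silenced library was below every Control library. In its window 16 of 28 stretches of 30 bases had another copy on chromosome 2. Interval_133912 (chr2:16998533-17000796), the next site, had 0 of 28 such stretches and fell as well, with 18.9, 21.3 and 19.1 CPM in Control, 5.25, 4.67 and 4.79 in shARID1A/B.2.3, and 6.86, 6.26 and 6.77 in shARID1A/B.4.2. Its log2 change was -1.79 in the averaged combinations (SE 0.09, FDR = 8.1e-31), and the combinations were lower than the single shRNA groups, with a difference of -1.124 (FDR = 3.8e-23). Interval_133903 (chr2:16961982-16963284) and Interval_133892 (chr2:16931288-16935458) fell by 1.93 and 1.37, and all 18 silenced libraries were below Control at both.

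Interval_133657 (chr2:15913466-15915405) was the called site of largest fall close to MYCN, 26 kb upstream of its start and in no gene. It had 14.7, 13.7 and 13.2 CPM in Control, 5.45, 5.69 and 5.01 in shARID1A/B.2.3, and 6.23, 5.89 and 6.31 in shARID1A/B.4.2. It fell by 1.27 in the averaged combinations (SE 0.09, FDR = 7.8e-21, edgeR) and by 0.56 to 0.93 with single shRNAs, and 14 of its 28 stretches had another copy on chromosome 2. Interval_133659 is the site that the annotation places nearest to the MYCN start among those it assigns to MYCN. It did not pass, with 2.36, 2.63 and 2.53 CPM in Control and 2.28 to 3.09 CPM in the combinations (log2 change 0.07, FDR = 0.81, edgeR). Of its 28 stretches, 17 had another copy on chromosome 2.

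**Figure D5:**
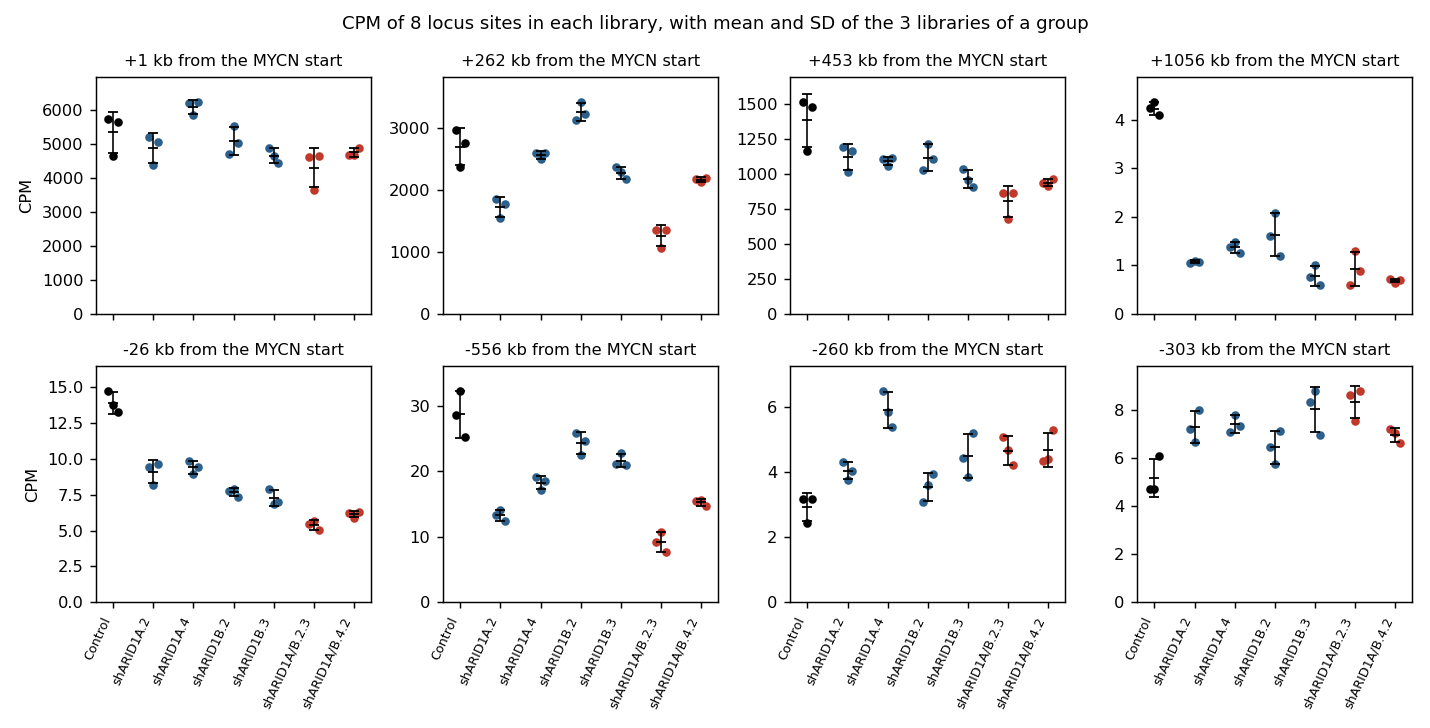
CPM of 8 locus sites in each library (points) with the mean and SD of the 3 libraries of a group, titled by distance from the MYCN start. The site at +1 kb covers the MYCN start, and the site at +1056 kb is at 4.09 to 4.36 CPM in Control and at most 2.09 CPM in every silenced library.

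In the neighbouring genes, no start site passed as lower in any comparison with Control. The NBAS start site had 39.3, 41.8 and 39.6 CPM in Control, 39.8, 44.03 and 39.1 in shARID1A/B.2.3, and 46.4, 44.6 and 50.9 in shARID1A/B.4.2, and passed in no comparison with Control. The DDX1 start site had 84.7, 86.6 and 76.0 CPM in Control, 85.9, 94.7 and 77.2 in shARID1A/B.2.3, and 106, 104 and 105 in shARID1A/B.4.2. It rose by 0.35 in shARID1A/B.4.2 (FDR = 3.6e-04, edgeR) and was at 0.06 in shARID1A/B.2.3 (FDR = 0.64), a difference of -0.29 between the combinations (FDR = 0.0079). In the averaged combinations its value was 0.21 (FDR = 0.022), and -0.03 with promoter-based scaling. Over NBAS 6 of 124 sites closed and 0 opened, and over FAM49A 1 of 31 opened. Of all tested sites, 10.3% closed and 3.43% opened in the averaged combinations. The 11 sites in DDX1 had a median log2 change of 0.17, and none passed (edgeR) apart from the start site in shARID1A/B.4.2. The largest fall within NBAS was Interval_133503 (chr2:15383485-15385680), in intron 28 of 50, with 28.6, 32.2 and 25.1 CPM in Control, 9.13, 10.8 and 7.65 in shARID1A/B.2.3, and 15.5, 15.7 and 14.7 in shARID1A/B.4.2. It fell by 1.27 in the averaged combinations (FDR = 1.6e-23), and by 0.71 more in shARID1A/B.2.3 than in shARID1A/B.4.2 (FDR = 2.0e-07).

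The 3 opened sites outside the run were Interval_133596, Interval_133583 and Interval_133804. Interval_133583 (chr2:15636801-15638324), just beyond the end of DDX1, had 4.72, 4.73 and 6.09 CPM in Control, 8.63, 7.55 and 8.79 in shARID1A/B.2.3, and 7.21, 7.04 and 6.63 in shARID1A/B.4.2, a rise of 0.55 (SE 0.11, FDR = 6.4e-05, edgeR). Interval_133596 (chr2:15680194-15681519), over an exon of ENSG00000224194, rose by 0.68 from 2.43 to 3.18 CPM in Control to 4.22 to 5.29 CPM in the combinations, and 15 of its 28 stretches had another copy on chromosome 2. Interval_133804 (chr2:16608505-16609493), in intron 2 of 11 of FAM49A, rose by 0.34 from 14.3 to 16.4 CPM in Control to 18.0 to 20.7 CPM in the combinations. Without Control replicate 1 its rise was 0.29 and did not pass. With promoter-based scaling Interval_133583 and Interval_133804 had log2 changes of 0.31 and 0.10, which did not pass. The FAM49A site nearest to its annotated start (Interval_133808, chr2:16625233-16630091) did not pass in any comparison with Control.

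For the proteins that work with MYCN, counts were taken over a list of genes. Of 12 genes of the MYC network, 5 had a tested promoter-annotated site, and in the averaged combinations 4 of these 5 sites opened and 0 closed, with a median log2 change of 0.35. They belonged to MAX, the obligate partner of MYC proteins, and to MGA, MXD1 and MXD4, which pair with MAX and repress MYC targets. In shARID1A/B.2.3 3 of the 5 opened and in shARID1A/B.4.2 4 did. Promoter sites outside the locus also opened often, 60.9% of those at 2 or more times their median signal and 22.8% of the lower ones in the averaged combinations, with medians of 0.29 and 0.18. Over all 79 tested sites nearest to the 12 genes 10 opened and 4 closed, against 3.43% and 10.3% of all tested sites. The list was not recounted under other scalings.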

How the data were processed

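ATAC-seq was measured in 21 libraries of 7 groups. The authors deposited raw counts of reads per library in 367900 consensus sites (GRCh38, per the labels), called on merged replicates and annotated with HOMER. The sources used here do not give the aligner, the peak caller or any read shifting. Normalized counts and the fold changes and p-values of the authors' own DESeq2 comparisons stood in the same deposit and were not used.

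Raw counts were tested with edgeR 4.0.16 (quasi-likelihood, TMM, filterByExpr with minimum count 10, R 4.3.3), all 7 groups in 1 model without covariates and Benjamini-Hochberg adjustment over 357029 tested sites. The filter removed 10871 sites, 1 of them in the locus. CPM is the count scaled by library total and TMM factor, averaged over libraries unless given per library. The TMM factors rest on most sites being alike between libraries. Replicates differed by more than counting noise in every pair (chi-square 1.08 to 2.47 per degree of freedom). Simulated data covered the averaged combinations and 349092 sites. There the test recovered 92% of 100 sites changed by 1.0 on the log2 scale and 15% of 100 changed by 0.5. The changed sites were drawn from all tested sites above a count limit, with the same spread for every site. At such sites many smaller changes would not be called. Run sites had at least 360 reads in every library and were called at rises from 0.19, so this recovery does not describe them. Same-numbered libraries of Control and shARID1A/B.2.3 deviated together (correlations 0.125, 0.374 and 0.126), which by the limit of 0.1 in every pair pairs these 2 groups, from the data and not from the labels. Named sites were those nearest to the starts of MYCN, MYCNOS, MYCNUT, GACAT3, DDX1, NBAS, FAM49A, MIR3681HG and LINC01804 that the annotation assigns to them (MYCNUT, GACAT3, MIR3681HG and LINC01804 had none), the 6 largest falls and 6 largest rises with at least 1 CPM, and the 4 of highest CPM. Of the MYC network list (MYC, MYCL, MAX, MNT, MGA, MLX, MLXIP, MLXIPL, MXD1, MXI1, MXD3, MXD4), counts are given. A second gene list, some marker genes and some motifs are not reported here. The sites, lists and tests were chosen with earlier results of these data known. Alternatives were total-count, promoter-based and run-based scaling, DESeq2 1.42.0, no filter, a replicate block and leaving out each library. Fits that left out a library computed the filter, the TMM factors and the spread between libraries again. Their trend of spread with signal was taken from every 4th site, so a call that changed in them also holds this refit. Genes are from GENCODE 44.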

Additional observations from a re-analysis of the deposited data

Results flagged for a closer look

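Direct tests between silenced groups (edgeR, FDR under 0.01) found differences at the sites described above, given here as log2 differences with no explanation. The combinations differed from the single shRNA groups by -0.19 at Interval_133660, -0.79 at Interval_133903, -1.124 at Interval_133912, -0.78 at Interval_133892, -0.52 at Interval_133657, -0.66 at Interval_133503, -0.53 at Interval_133706, -0.28 at Interval_133709, -0.25 at Interval_133665, -0.39 at Interval_133689, -0.46 at Interval_133703 and -0.31 at Interval_133746. Group shARID1A/B.2.3 differed from shARID1A/B.4.2 by -0.29 at Interval_133572, -0.49 at Interval_133892, -0.71 at Interval_133503, -0.78 at Interval_133706, -0.27 at Interval_133665 and -0.47 at Interval_133703.

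Group shARID1A.2 differed from shARID1A.4 by -0.32 at Interval_133660, -0.62 at Interval_133892, -0.46 at Interval_133503, -0.56 at Interval_133596, -0.58 at Interval_133706 and -0.68 at Interval_133703, and by 0.69 in the other direction at Interval_133689. Group shARID1B.3 differed from shARID1B.2 by -0.98 at Interval_133911, -0.39 at Interval_133912, -0.52 at Interval_133706, -0.26 at Interval_133665 and -0.67 at Interval_133689.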

How the results depend on the processing

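Without input DNA the copy number of the run stayed unmeasured, and library depth limits sites near 1 CPM most. TMM factors from promoter sites changed the counts most. With them 76 locus sites closed in the averaged combinations, against 15.92% of all sites. Closed locus sites became 35 in shARID1A.2 (6.754% of all sites), 51 in shARID1A.4 (8.281%), 26 in shARID1B.2 (2.592%) and 46 in shARID1B.3 (8.13%). They became 117 in shARID1A/B.4.2 (15.09%) and 48 for combinations against single shRNAs (8.761%). Opened sites became 1 in the averaged combinations (0.7285%), 18 in shARID1A.2 (0.3554%), 2 in shARID1A.4 (0.4364%) and 6 in shARID1B.3 (1.181%). They became 33 in shARID1A/B.2.3 (1.097%), 1 in shARID1A/B.4.2 (0.8103%) and 0 for combinations against single shRNAs (0.3126%). The log2 change turned to -0.17 at Interval_133659, -0.0294 at Interval_133572, -0.10 at Interval_133566 and -0.14 at Interval_133705. That of the locus signal turned to -0.12 in shARID1A.2 and -0.21 in shARID1A.4. Total counts gave 64 opened sites in the averaged combinations (4.02%), 2 in shARID1B.2 (1.495%), 36 in shARID1B.3 (3.27%) and 4 against single shRNAs (1.62%). They gave a locus signal of -0.0136 in shARID1A.4. Scaling on the run holds its summed signal level between libraries, so a fall of its tall sites must be met by a rise of its other sites. It gave 67 opened sites in the averaged combinations (4.90%), 22 in shARID1A.2 (0.615%), 0 in shARID1B.2 (1.19%), 13 in shARID1B.3 (2.61%), 31 in shARID1A/B.4.2 (5.51%) and 22 against single shRNAs (2.77%). Closed sites became 19 in shARID1A/B.4.2 (5.38%) and 17 against single shRNAs (4.07%), and the log2 change was 0.0269 at Interval_133808. No filter gave 10, 2 and 11 opened sites in shARID1A.4, shARID1B.2 and shARID1A/B.4.2 (2.65%, 1.47% and 4.40%). DESeq2 gave 0 opened sites in shARID1B.2 (0.914%) and 1 against single shRNAs (0.544%), and 18 closed in shARID1B.3 (3.56%). Bins of 50 kb shortened the stretch to 550 kb. The cause of these shifts was not tested.

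The replicate numbers paired the libraries of Control and shARID1A/B.2.3 but of no other 2 groups by the limit of 0.1 in every pair. In all, 8 of 63 correlations of same-numbered deviations were over 0.1 (range -0.207 to 0.3735) and libraries correlated best with their own number in 1 of 21 group pairs. A replicate block gave 14, 2 and 8 opened sites in shARID1A.4, shARID1B.2 and shARID1A/B.4.2, against 2.82%, 1.53% and 4.35% of all sites. In the direct comparisons it left 37 run sites higher in shARID1A/B.2.3 than in shARID1A/B.4.2 (20 without it), against 1.562% of all sites. It left 7 higher in shARID1A.2 than in shARID1A.4 (2 without it), against 0.8162% of all sites. It moved no count of closed or opened sites in shARID1A/B.2.3 against Control by over 1.5 times. The DDX1 start site passed in the averaged combinations under the block, total counts or no filter (0.21 to 0.23).

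Leaving out each library in turn gave 33 to 40 closed and 18 to 63 opened sites in the averaged combinations, 15 to 20 and 18 to 65 in shARID1A.2, 13 to 16 and 2 to 14 in shARID1A.4, 8 to 14 and 0 to 2 in shARID1B.2, 15 to 30 and 9 to 31 in shARID1B.3, 34 to 42 and 36 to 74 in shARID1A/B.2.3, 20 to 34 and 3 to 20 in shARID1A/B.4.2, and 23 to 28 and 0 to 3 for combinations against single shRNAs. The fewest opened sites in the averaged combinations, shARID1A.2, shARID1B.3 and shARID1A/B.2.3 came without Control replicate 2, and the most in the first, the second and the fourth of these came without shARID1A/B.2.3 replicate 2. Closed sites moved by over 1.5 times without shARID1A/B.4.2 replicate 1 (20 in that group) and without shARID1B.3 replicate 1 or 2 (17 and 15 in that group). The log2 difference of the locus signal then ranged from -0.1865 to -0.0345 in the combinations, -0.08189 to 0.07012 in shARID1A.2, -0.0721 to 0.07991 in shARID1A.4, -0.1148 to 0.03724 in shARID1B.2, -0.1013 to 0.05068 in shARID1B.3, -0.1619 to 0.00756 in shARID1A/B.2.3 and -0.2111 to -0.05913 in shARID1A/B.4.2.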
